A study of Caenorhabditis elegans with 2 samples.

Results

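The 9 genes described here encode proteins of the synapse, of axon outgrowth and of receptor traffic, and were asked for by name among the 19973 protein-coding genes of Caenorhabditis elegans. They are syd-2, unc-13, unc-64, ric-4, snb-1, unc-50, maco-1, unc-69 and unc-119. They were chosen by name and role with the signals, ranks and positions of their peaks in these data known, so which of them hold a peak is a description and was not tested. The assay was chromatin immunoprecipitation followed by sequencing (ChIP-seq), which finds where a protein sits along the genome. The protein was COG-1, an NK6-type homeodomain factor, tagged at its C-terminus with GFP and FLAG and pulled down through the GFP. Both samples were biological replicates of 1 group, hermaphrodite mid-embryos of strain OP541 (unc-119(tm4063) III; wgIs541) taken 3 h after egg bleaching, and no input or untagged list was used here. Both replicates therefore carried the transgene and an unc-119 mutation. The labels do not say which cells expressed the tagged protein.

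At a synapse, vesicles filled with transmitter dock at the active zone, are primed, and fuse when a SNARE protein on the vesicle pairs with SNARE proteins on the plasma membrane. Receptors for the transmitter are assembled in the endoplasmic reticulum and pass through the Golgi before they reach the surface of the receiving cell. Axons must first grow out and find their targets, and many unc genes were found because worms with faulty axons or synapses move in an uncoordinated way. COG-1 itself is known from the ASE taste neurons and the vulva. Whole embryos were used, so binding in a few cells and weak binding in many cells cannot be told apart.

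A peak was assigned to a gene when its summit, the base of highest signal, lay in the start window, from 1000 bp upstream to 500 bp downstream of the annotated start. By this rule 4 of the 9 genes held a peak of the list thresholded by the irreproducible discovery rate (IDR), namely syd-2, maco-1, unc-50 and unc-69. The share among all protein-coding genes was 6.82%, and since the genes were chosen with these peaks known, nothing is read from the difference. The 4 genes held 3 distinct peaks, because unc-50 and unc-69 lie back to back and share 1. A further gene, snb-1, held only a weaker region, and unc-119, unc-13, unc-64 and ric-4 held none in the window. Signal is the value of the authors' peak caller. It was used to rank regions within a list, and its scale differs between lists.

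The stretches below surround the summits that the results turn on, and show the DNA under a peak of the IDR list (syd-2, and unc-69 with unc-50), under a weaker region of the start window (snb-1), and under regions upstream of a window (unc-64) and inside a gene (unc-119). The unc-119 region had no q under 0.05 in any list and is not shown to be bound. Each runs 5′ to 3′ on the strand of the named gene and holds 201 bases of the RefSeq WBcel235 sequence, which is the sequence of ce11. Capitals mark TAAT, the core read by many homeodomain proteins, and GAGAG and GCGCG, each on either strand. The summit is at base 101, except in the unc-69 stretch, which stops at the last base before the gene and has the summit at base 167. The positions are chrX:10555547-10555747 (minus strand) for syd-2, chrIII:10318738-10318938 (plus) for unc-69, chrV:6656803-6657003 (minus) for snb-1, chrIII:13275869-13276069 (plus) for unc-64 and chrIII:10905178-10905378 (plus) for unc-119. The maco-1 peak is described by its values only.
syd-2: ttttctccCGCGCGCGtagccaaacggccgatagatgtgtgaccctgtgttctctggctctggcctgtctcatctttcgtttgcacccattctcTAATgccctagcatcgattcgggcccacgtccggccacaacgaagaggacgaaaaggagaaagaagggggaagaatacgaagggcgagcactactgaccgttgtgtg
unc-69: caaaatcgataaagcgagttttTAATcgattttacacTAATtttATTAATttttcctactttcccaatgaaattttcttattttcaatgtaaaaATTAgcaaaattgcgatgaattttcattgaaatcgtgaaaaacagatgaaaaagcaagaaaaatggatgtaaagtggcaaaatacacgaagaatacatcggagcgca
snb-1: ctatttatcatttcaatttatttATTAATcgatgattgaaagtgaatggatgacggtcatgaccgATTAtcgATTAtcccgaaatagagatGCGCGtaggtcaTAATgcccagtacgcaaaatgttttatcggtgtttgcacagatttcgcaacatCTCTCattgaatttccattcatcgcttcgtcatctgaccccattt
unc-64: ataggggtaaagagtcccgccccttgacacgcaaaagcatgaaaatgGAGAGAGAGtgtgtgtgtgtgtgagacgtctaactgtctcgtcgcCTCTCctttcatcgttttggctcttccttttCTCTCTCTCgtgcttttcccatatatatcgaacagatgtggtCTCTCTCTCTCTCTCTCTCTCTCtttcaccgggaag
unc-119: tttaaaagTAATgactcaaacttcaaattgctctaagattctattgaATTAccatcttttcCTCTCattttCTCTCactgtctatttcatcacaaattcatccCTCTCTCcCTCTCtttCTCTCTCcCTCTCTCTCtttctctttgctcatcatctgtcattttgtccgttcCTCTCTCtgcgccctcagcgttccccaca

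The sequences differed among themselves. The stretch at unc-69 was poor in G and C (28.4%) and held TAAT 5 times, all more than 50 bp from the summit, and neither GAGAG nor GCGCG. It is not centred on the summit, and within 50 bp of the summit the share of G and C was 35.6%. The stretch at syd-2 was the richest in G and C (55.2%) and held TAAT once, with the GCGCG matches overlapping in a single run near its far upstream end. The snb-1 stretch held TAAT 5 times, GAGAG once and GCGCG once. The unc-64 and unc-119 stretches held GAGAG 17 and 12 times, counting overlaps, and no GCGCG. At unc-64 most of these matches lay in a single long run of CT, and at unc-119 they were spread over several short runs. Over stretches of 201 bases centred on the summits, GAGAG was present at 63.5% of the 1841 IDR peaks and 32.5% of the 22583 pooled regions, TAAT at 67.8% and 85.2%, and GCGCG at 38.1% and 14.7%. These are matches to letters on either strand. The 2 lists also differed in base composition. Within 50 bp of the summit the median share of G and C was 47.5% at IDR peaks and 35.6% at pooled regions. Its part in the shares of these words was not tested. The longer words TAATTA and TTAATT were found within 50 bp of none of the 6 summits searched, the 5 above and that of maco-1. At that distance they were present at 2.66% and 6.14% of IDR summits and 6.35% and 17.04% of pooled ones, so nothing is read from their absence at 6. The same holds for CACGTG (2.72% and 1.88%) and TGACTCA (0.652% and 0.806%). Farther than 50 bp from the summit, the unc-69 stretch held TTAATT once and the unc-119 stretch TGACTCA once.

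Of the active zone genes, syd-2 held the strongest peak among the 9 genes and unc-13 held none. syd-2 encodes liprin-alpha, a scaffold that organizes the active zone. Its peak (X, 10555422 to 10555871) had its summit 408 bp upstream of the start, with a signal of 186 in the pooled reads and rank 259 of 1841. In the replicates' own lists the region had a signal of 67.2 and rank 441 of 21617 in replicate 1, and a signal of 121 and rank 182 of 20247 in replicate 2. Its summit was 408 bp upstream in the first and 468 bp upstream in the second, so both replicates placed it in the same stretch and both ranked it high. The summit also lay inside F59F5.9, a non-coding RNA gene of 10555546 to 10555744, so the window of syd-2 is not the only annotation there. Of all IDR summits, 281 (15.3%) lay inside a non-coding RNA gene. No other protein-coding start window held this peak, and the next protein-coding gene upstream, F59F5.7, was 4263 bp away. A second, overlapping pooled region lay 613 bp upstream (signal 63.6, q = 0.0212), and replicate 2 listed a further region 1605 bp upstream (rank 2346, q = 0.00277). The pooled list gave that stretch a q of 0.377, and replicate 1 had no region there. The body of syd-2 held 3 pooled regions, all in introns from 4387 to 5274 bp past the start, with a highest signal of 35.2 and q of 0.659 and above.

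unc-13 encodes the protein that primes vesicles for fusion, and is the longest of the 9 genes at 31332 bp with 5 annotated transcript starts. No list had a summit in the window of its first start. Replicate 1 had a region 1008 bp upstream, just outside the window (signal 15.8, rank 17111 of 21617), and the pooled list had its nearest one 2460 bp upstream (rank 21157 of 22583). Inside the gene there were 4 pooled regions with signals of 38.9, 30.9, 28.1 and 26.9, at 8187, 11272, 21524 and 24745 bp past the start. None of them had a q under 0.05, and the strongest, rank 7045, lay in a coding exon. The region at 11272 bp was 640 bp downstream of an internal transcript start. The nearest IDR summit to the first start was 49.6 kb away, beyond the end of the gene.

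**Figure D1:**
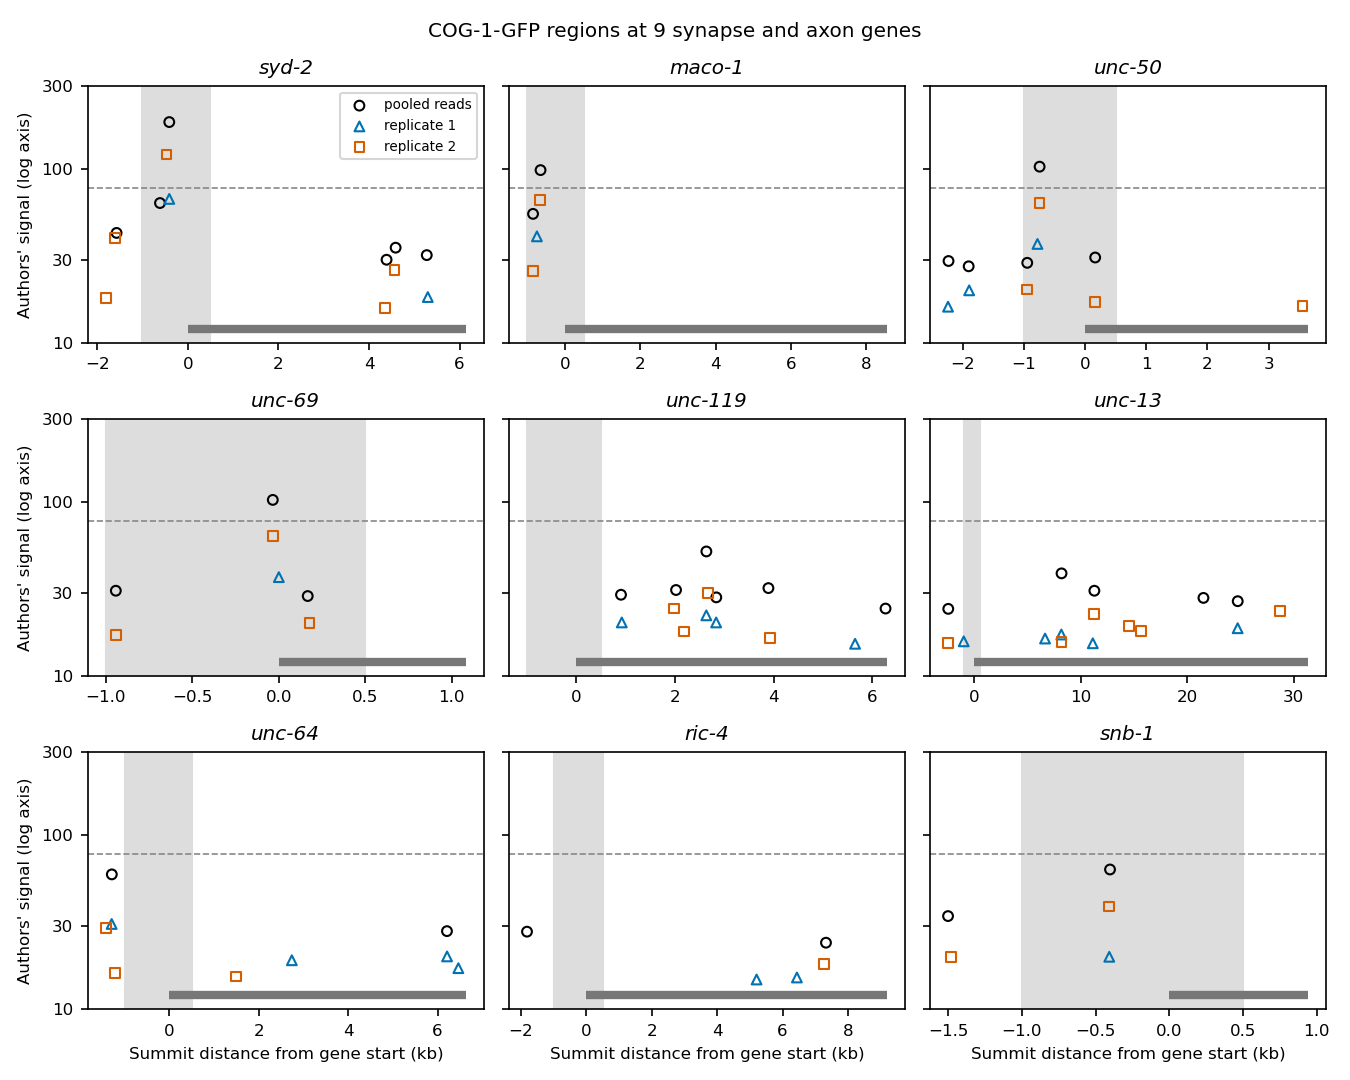
Each panel shows one gene, with the distance of region summits from the gene start in kb (x axis) and the authors' signal (y axis, log axis). The grey bar is the gene, the shaded band the start window, the dashed line the lowest signal of the IDR list (77.7), which applies to the pooled reads (circles) only, and triangles and squares are the regions of replicates 1 and 2, whose scales differ from the pooled one. Only the circles at syd-2 (186), maco-1 (98.4) and the shared unc-50 and unc-69 peak (103) lie above the line.

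The 3 SNARE genes held no IDR peak. snb-1 encodes synaptobrevin, the SNARE of the vesicle, and of the genes outside the IDR list it came closest to it. Its window held 1 pooled region (V, summit at 6656903, 402 bp upstream) with a signal of 63.6, rank 2615 of 22583 and q = 0.0220. The IDR list was the 1841 pooled regions of highest signal, with a lowest signal of 77.7, so snb-1 lay below that limit while its q was under 0.05. The replicates differed here. Replicate 2 ranked the region 2461 of 20247 (signal 38.9, q = 0.00549), whereas replicate 1 ranked it 9105 of 21617 (signal 20.0, q = 0.715), although both put the summit 407 bp upstream. The region thus stood out in replicate 2 and lay near the middle of the list in replicate 1. The nearest IDR summit was 28.2 kb away.

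unc-64 encodes syntaxin, a SNARE of the plasma membrane. Its window was empty in all 4 lists, but a pooled region lay outside it, 1289 bp upstream (III, summit at 13275969), with a signal of 59.6, rank 2933 and q = 0.0462. Replicate 1 listed it 1293 bp upstream at rank 2653 (signal 30.9, q = 0.138), and replicate 2 had its strongest region there 1420 bp upstream at rank 4188 (signal 29.3, q = 0.108). Neither replicate alone gave a q under 0.05. No protein-coding gene lay between this region and unc-64, since the next one upstream, cpf-2, was 8374 bp away from the unc-64 start. ric-4, which encodes the SNAP-25 partner of syntaxin, held the least. The nearest pooled region lay 1817 bp upstream (signal 27.9, rank 15549), and the only one in its body had a signal of 24.1 and rank 21513 of 22583. That region was 246 bp upstream of the second annotated transcript start of ric-4. The nearest IDR summit was 85.8 kb from its start, the farthest among the 9 genes.

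unc-50 and unc-69 share the peak between their starts. unc-50 encodes a Golgi membrane protein needed for levamisole-sensitive acetylcholine receptors to reach the muscle surface, and unc-69 encodes a coiled-coil protein of axon outgrowth that binds UNC-76. The genes are divergent on chromosome III, with unc-50 (10314523 to 10318162) on the minus strand and unc-69 (10318939 to 10320019) on the plus strand. The peak (10318679 to 10319128) had its summit 35 bp upstream of unc-69, 345 bp upstream of ostf-4, a gene of 10318452 to 10318559 between them on the minus strand, and 742 bp upstream of unc-50. Its pooled signal was 103, rank 1086 of 1841. Replicate 1 gave it a signal of 37.0, rank 1740 of 21617 and q = 0.0285, and replicate 2 a signal of 63.8, rank 950 of 20247 and q = 0.000306. The peak thus had a q under 0.05 in both replicates. Replicate 1 put the summit at 10318939, the first base of unc-69, and replicate 2 at 10318906. Of the 1036 IDR peaks in start windows, 34.4% were shared by at least 2 genes, and 25 (2.41%) by 3 or more, as here. The peak cannot be attributed to one of the 3 genes from its position. With each peak given only to its nearest gene start, it goes to unc-69 and unc-50 holds none. The other pooled regions in these windows, 167 bp inside unc-69 and 166 bp inside unc-50, had signals of 28.8 and 30.9 and q of 0.873 and 0.814.

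maco-1 encodes macoilin, a membrane protein of the endoplasmic reticulum found broadly in neurons and needed for normal neuronal excitability. Its peak (I, 6607936 to 6608385) had its summit 641 bp upstream, with a pooled signal of 98.4 and rank 1184 of 1841. Replicate 1 had 1 region in the window, 737 bp upstream (signal 40.9, rank 1397, q = 0.0125). Replicate 2 had 2, of which the stronger lay 646 bp upstream (signal 66.0, rank 890, q = 0.000306) and the weaker 846 bp upstream (signal 25.9, rank 5358). Both replicates thus held the peak with a q under 0.05, but their strongest summits were farther apart than those at unc-69. The non-coding RNA gene D2092.13 began 180 bp from the pooled summit, and 34.1% of IDR summits lay within 500 bp of such a gene. The gene is 8539 bp long, and past its start window none of the 4 lists held a region.

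unc-119 encodes a chaperone of lipid-modified proteins that is needed for axon development, and no list had a summit in its window. The strain is mutant for this gene. Its body held 6 pooled regions over 6295 bp, 5 of them in introns, more than in any other of the 9 genes. The lists of replicates 1 and 2 held 4 and 4 regions there, against 4 and 5 in the longer body of unc-13. The regions with summits 2637 and 2838 bp past the start overlap and are counted separately. The strongest lay 2637 bp past the start (III, summit at 10905278) with a signal of 52.0, rank 3740 and q = 0.137. The replicates placed it at 2636 and 2675 bp, with ranks of 6655 and 4041 and q of 0.580 and 0.0907. The other 5 had signals from 24.4 to 32.0. One of them lay 80 bp downstream of an internal transcript start of unc-119. This comes to 1.04 pooled regions per kb past the window, against 0.176 per kb over all protein-coding genes. Among the 4625 genes with 3 to 12 kb of such sequence, 48 (1.04%) held 6 or more pooled regions. None of the 6 had a q under 0.05. The labels do not give the contents of the transgene besides tagged COG-1, and its part in these counts was not tested. The nearest IDR summit lay 33.5 kb upstream.

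Gene bodies held no IDR peak in any of the 9 genes, against 1.70% of all protein-coding genes with an IDR summit past the start window. Pooled regions, which also include background, were found in the bodies of 5 of the 9 genes, against 24.5% of all genes. The 9 genes are long, with a median length of 6295 bp against 2027 bp for all. Among the 6 of them with 3 to 12 kb of sequence past the window, 4 held a pooled region there, against 54.3% of all genes of that length. Per kb past the window the 9 genes held 0.217 pooled regions, against 0.176 over all genes, and without unc-119 the other 8 held 0.142. These 15 regions had signals from 24.1 to 52.0, and 12 lay in introns, 2 in untranslated exons and 1 in a coding exon. In start windows, a pooled region was found at 5 of the 9 genes, against 36.1% of all, and each of the 5 had one with q under 0.05, against 10.4%. Both replicates' own lists had a region at the same 5 genes, where the shares among all genes were 35.2% in replicate 1 and 34.2% in replicate 2.

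Replicate 2 ranked all 3 IDR peaks of these genes higher than replicate 1 did. The ranks were 182 against 441 at syd-2, 950 against 1740 at unc-50 and unc-69, and 890 against 1397 at maco-1. Over the 1833 IDR peaks found in both replicates, 927 (50.6%) ranked higher in replicate 2, so an order of this kind is found at about every other peak. The lists hold unequal numbers of regions, and 3 peaks are too few to read more from the order. In each replicate alone, the 1841 strongest regions gave peaks at the same 4 genes.

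**Figure D2:**
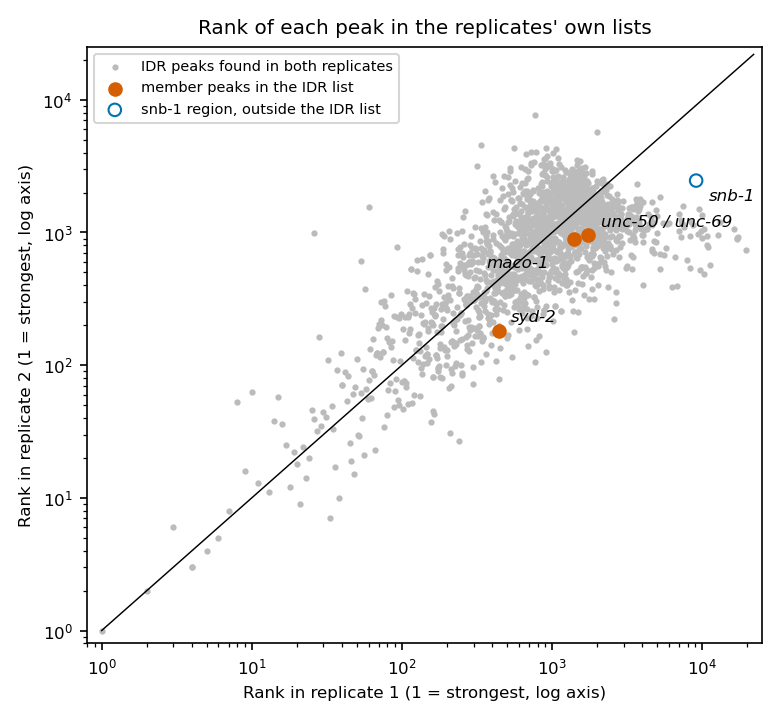
Each grey point is 1 of the 1833 IDR peaks found in both replicates, placed by its rank in the list of replicate 1 (x axis) and of replicate 2 (y axis), both log axes with 1 as the strongest, and the line marks equal ranks. The filled points are the peaks at syd-2 (441 and 182), maco-1 (1397 and 890) and unc-50 with unc-69 (1740 and 950), all below the line, and the open point is the region at snb-1 (9105 and 2461), which is not in the IDR list.

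The peaks of these genes were set beside the IDR peaks in start windows that came next in pooled signal. The peaks in start windows next above and below syd-2 were at C04C11.25 (signal 187) and serp-1.1 (186). Those next to the unc-50 and unc-69 peak were at nrde-4 and M03F4.4 (both 103), and those next to maco-1 were at hrpu-2 (98.5) and apm-3 (98.4). With IDR peaks outside start windows counted, the one directly above syd-2 (rank 258, signal 186) was in an intron of unc-41. That gene is a vesicle recycling gene of the wider list below. The likeness is in 1 value, the pooled signal, and the roles of the neighbouring genes were not compared.

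A wider list of 93 annotated genes in 8 roles, the 9 genes among them, was also written with earlier results known. In it 12 genes (12.9%) held an IDR peak in the start window, and 8 of the 84 besides the 9 genes (9.52%), against 6.82% of all protein-coding genes. No test was made, and the list is described by its counts. Axon outgrowth and guidance had the most, with 6 of 22 genes. The roles of SNAREs and release, vesicle recycling, and transmitter synthesis and loading had none among 12, 7 and 11 genes. Receptors and receptor traffic had 3 of 15, and the active zone, axonal transport and the remaining panneuronal genes had 1 each, of 13, 7 and 6. A pooled region of any q lay in the window of 50 of the 93 genes (53.8%), against 36.1% of all protein-coding genes. Among them were 6 of 7 vesicle recycling genes and 3 of 12 SNARE and release genes. Of the vesicle recycling regions only that of itsn-1 had a q under 0.05 (0.0472), and the others ranged from 0.0558 to 0.954. Of the SNARE and release genes, snb-1 (q = 0.022) and tom-1 (q = 0.00491) had one under 0.05.

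The outgrowth genes with a peak included the partner of UNC-69. unc-76 encodes the FEZ-family protein that binds UNC-69, and its peak (V, summit at 15071442, 318 bp upstream) had a signal of 192 and rank 236, with ranks of 324 and 199 in replicates 1 and 2. unc-14, whose product binds the UNC-51 kinase, had the strongest peak of the list (I, summit at 7128375, upstream of the start), with a signal of 234 and rank 122. unc-73, the Trio-type exchange factor that activates Rac, had a peak 906 bp upstream with a signal of 162 and rank 369, near the edge of the window. unc-115, an actin-binding protein of the abLIM family, had one 107 bp upstream with a signal of 150 and rank 462. unc-40, the netrin receptor of the DCC family, had one 270 bp upstream with a signal of 122 and rank 741, which was also in the window of npp-7, a nucleoporin gene. In axonal transport, unc-16, the JIP3 homologue, had a peak 24 bp upstream with a signal of 107 and rank 979. The summit of that peak also lay inside a non-coding RNA gene.

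Besides unc-50, the receptor and receptor traffic genes with a peak were ric-3 and nra-2. ric-3 encodes a chaperone of acetylcholine receptors, with a peak 166 bp upstream (IV, 7818085) of signal 122 and rank 732. Replicate 1 ranked it 450 and replicate 2 ranked it 1745. nra-2 encodes an endoplasmic reticulum protein that affects receptor composition, with a peak 221 bp upstream of signal 135 and rank 593. That peak was also in the window of lin-53, the RbAp48 homologue of chromatin complexes. The other 12 genes of this role held none, both the receptor subunit genes such as unc-29 and glr-1 and the clustering, auxiliary and traffic genes lev-10, sol-1 and lin-10. With 6.82% of all genes holding a peak, nothing is read from how the peaks fall among so few. Of the 12 genes of the list with a peak, unc-50, unc-69 and maco-1 had the lowest signals, with ranks 1086 and 1184.

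**Figure D3:**
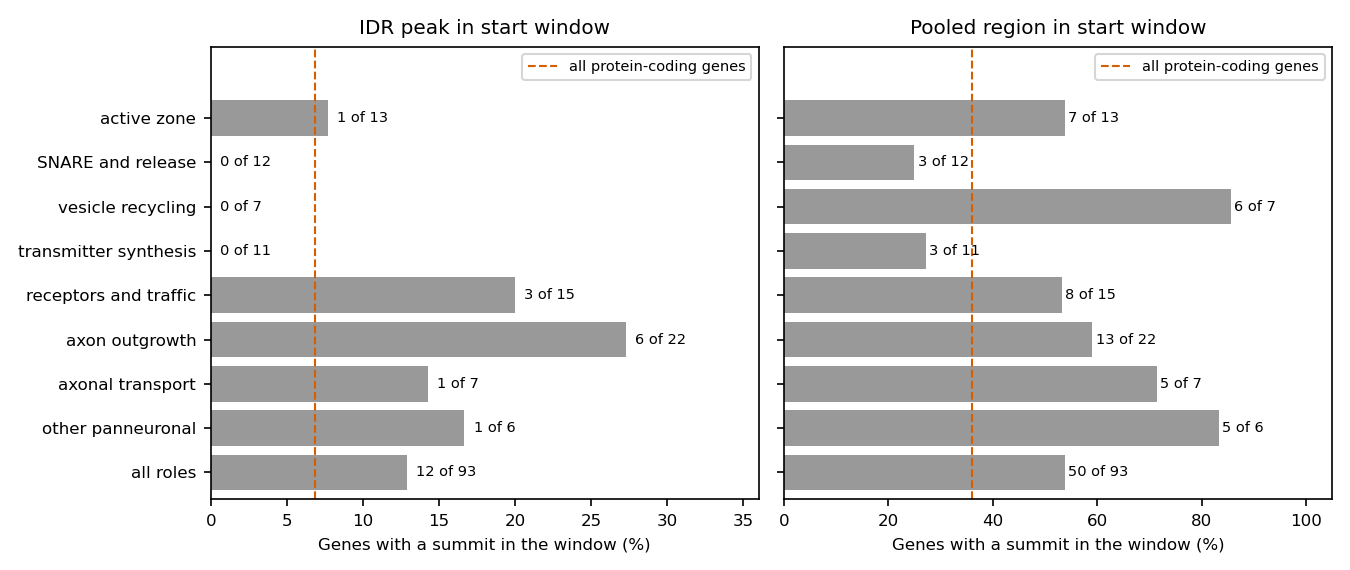
Bars give the percentage of genes of each role with a summit in the start window (x axis, from 0), for IDR peaks on the left and pooled regions on the right, with the counts beside them, and the dashed line is the share of all protein-coding genes, 6.82% and 36.1%. Axon outgrowth has the longest bar on the left (6 of 22) and 3 roles are at 0, while on the right vesicle recycling has 6 of 7. Pooled regions are counted at any q and include background. The list includes the 9 genes and was written with earlier results known.

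The count of 4 genes depends on the window. With 500 bp upstream to 250 bp downstream it is 2, syd-2 and unc-69, against 5.41% of all genes, because the summits at maco-1 and unc-50 are 641 and 742 bp from the start. In the stronger 920 IDR peaks only syd-2 remains, against 3.51% of all genes.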

How the data were processed

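The deposited ce11 lists were used, per the deposited file listing made from the alignments and a control alignment: a relaxed list of each replicate, one of the pooled reads and the list thresholded by IDR, labelled optimal. The aligner, caller, versions, IDR threshold and read depth remain not given in the sources used here. Each region's signal and q-value, on the −log10 scale, are the authors' values as deposited, and q was computed back from the latter. The highest −log10 value is shared by many regions (3.45 in the pooled list). The ce10 lists were not used here. Gene starts came from the Ensembl release 115 annotation of WBcel235, the sequence of ce11, and 0 regions ran past a chromosome end. Positions count from 1. Ranks are by signal within a list. Of 94 symbols of the wider list, 1 (unc-74) matched no protein-coding gene. Window assignment was tested on simulated summits. Python 3.11.15 and pandas 2.3.3 were used. The genes, lists, roles and words searched were chosen with earlier results of these data known. All 9 genes were named, with every gene sharing their peaks, the wider list's genes with an IDR peak in the window and the peaks next in signal. No test between groups was possible with 1 group, so no p-value of a comparison is given.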

Additional observations from a re-analysis of the deposited data

How the results depend on the processing

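The number of the 9 genes with an IDR peak was 2 with a window of 500 bp upstream to 250 bp downstream and 1 in the stronger 920 peaks, and 3 or 4 under the other 6 alternatives. With a window of 2000 bp upstream to 1000 bp downstream, the wider list held 19 genes with an IDR peak in place of 12, against 9.27% of all genes, and 8 of the 9 genes held a pooled region in place of 5, against 50.04% of all genes. The number of protein-coding genes with an IDR peak was 701 in the stronger 920 peaks, in place of 1362. Without replicate 1 or without replicate 2, taking the 1841 strongest regions of the other, the 9 genes gave 4 and 4, the wider list 14 and 12, and all genes 1349 and 1296. From the lists of the replicates alone, 5 and 5 of the 9 genes held a region. With the start of any annotated transcript counted, 7 of the 9 held a pooled region, unc-119 and ric-4 in addition, against 38.7% of all genes. The added regions were weak, with q of 0.775 and above at unc-119 and 0.951 at ric-4. No paired analysis was possible because the study has 1 group. With depth unknown, the precision of a rank can be judged only from the 2 replicates.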

Other observations

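Several neuronal genes of the wider list held IDR peaks in their introns, and of these only unc-73 also held one in its start window. These genes were singled out after their values were seen, and no test was made. In all, 9 of the 93 genes held 11 IDR summits past the start window, and all 11 were in introns. The share in introns among all IDR summits of gene bodies was not counted, so nothing is read from their place. These genes with intronic peaks are long, the shortest being klc-2, a kinesin light chain gene, at 4941 bp. The share among all protein-coding genes, most of them shorter, was 1.70%, and nothing is read from the difference. The strongest was in unc-41, which encodes the endocytic adaptor stonin (V, 9970318, signal 186, rank 258), and its summit lay 47 bp from the snoRNA gene C27H6.5. The summit in cat-1, the vesicular monoamine transporter gene (X, 5708016, signal 156, rank 411), lay 12 bp from a tRNA gene, and one of the 2 summits in unc-33, which encodes a CRMP-type protein of axon guidance (IV, 3524822, signal 137, rank 573), lay inside a tRNA gene. unc-5, the gene of the repulsive netrin receptor, held 2 summits with signals of 106 and 87.0, at 1498 and 20352 bp past its start. They lay 138 and 128 bp from annotated piRNA genes, which are non-coding. The second was also 917 bp downstream of an internal transcript start. The remaining intronic summits lay from 782 bp (unc-2) to 11761 bp (unc-73) from the nearest non-coding RNA gene. Among these was the summit in klc-2 (signal 147, rank 491), at 2146 bp. Of all IDR summits, 34.1% lay within 500 bp of a non-coding RNA gene, so nothing is read from the close ones. The summit in unc-2, a calcium channel gene, had rank 668 in replicate 2 and no region in replicate 1 covered it. The summit in tom-1 was also in the start window of ostd-1 and one in unc-73 was in that of F55C7.2, so those peaks may be listed under either gene.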
